A study of Homo sapiens with 8 samples.

Results

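The response of 18404 genes to the BRAF inhibitor PLX4032 (vemurafenib) was measured in COLO829 melanoma cells in which the transcription factor MITF had been lowered by a short hairpin RNA. It is the difference between the knockdown arrays with PLX4032 and those with DMSO, the solvent control, and it rests on 4 of the 8 arrays of the series. Each gene was read through the probe set with the highest mean over all 8 arrays among those that carry a single gene symbol. COLO829 is an established human melanoma line with an activating BRAF mutation. The cells had been infected with a pGIPZ vector that carried either the hairpin against MITF or a scrambled hairpin, and infected populations were selected with puromycin for 2 days. They then received 1 µM PLX4032 or DMSO for 24 h, which gave 4 groups of 2 arrays, named A and B. All groups therefore carried a vector and had been through puromycin selection. The labels name a single hairpin against MITF, and a second hairpin was not available for comparison. They do not say that the arrays of a group came from separate cultures, so the p-values reflect only the spread among these arrays, which could be technical.

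BRAF with an activating mutation drives the kinases MEK and ERK, and ERK in turn induces transcription factors, growth factors, cyclin D1 and its own inhibitors, the Sprouty proteins and the dual-specificity phosphatases. MITF is the lineage factor of melanocytes: it binds E-box and M-box sequences at genes for pigment enzymes, melanosome proteins, lysosomal proteins and survival factors. Melanoma cells with low MITF are known for a less differentiated state with invasive and inflammatory genes. The design allows the response to BRAF inhibition to be compared between cells with more and with less MITF.

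Levels below are log2 intensities, and changes are PLX4032 minus DMSO on the log2 scale, ± SE. The limma fit behind them used all 8 arrays, with n = 2 in each group. A gene is said to have risen or fallen where its limma p-value, adjusted by Benjamini-Hochberg over all 18404 genes, was under 0.05. The correlation between the arrays of a group across genes lay between 0.99734 and 0.99844, the SD between replicates was 0.0955 to 0.126 in the 4 groups, and the median SE of a change was 0.0939. The number of arrays limits the precision. Signal over background is unknown, so a change from or to a dim level may be understated, and its fold is that of the deposited values. In bulk RNA, fewer cells of a kind and less RNA per cell cannot be told apart.

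MITF was reduced, not absent, and it rose under the inhibitor. It read 10.44 and 10.46 in scrambled cells with DMSO, 10.88 and 10.80 in scrambled cells with PLX4032, 9.57 and 9.47 in knockdown cells with DMSO, and 10.07 and 10.08 in knockdown cells with PLX4032. Both knockdown arrays with PLX4032 lay above both knockdown arrays with DMSO and below all 4 scrambled arrays. The rise in knockdown cells was 0.56 ± 0.080 (1.47-fold, limma adjusted p = 0.000239). The rise in scrambled cells was 0.39, and the difference between the rises, 0.17 ± 0.11, was not called (adjusted p = 0.415). The related factor genes TFEB (0.43 ± 0.12) and TFE3 (0.36 ± 0.089), which control lysosomal genes, also rose. Both of these calls ended without knockdown DMSO array B (0.32, adjusted p = 0.135, and 0.35, adjusted p = 0.0558), and that of TFEB also without knockdown PLX4032 array A (0.38, adjusted p = 0.0686).

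Melanocyte lineage markers read at very different levels in knockdown cells with DMSO. TYR read 11.24 and 11.10 and MITF 9.57 and 9.47, whereas TYRP1 read 5.54 and 5.63 and MLANA 4.32 and 4.47. Of 7 measured lineage markers, 6 rose under PLX4032 in knockdown cells and 0 fell, with a median change of 0.51. For comparison, 18.6% of all genes tested rose and 15.1% fell, and the median over all genes was 0.0393. SOX10, a lineage transcription factor, read 10.55 and 10.51 with DMSO and 11.05 and 11.03 with PLX4032 (0.51 ± 0.097). Among 11 leukocyte and 8 keratinocyte markers 0 rose and 0 fell in the limma fit. The leukocyte surface gene PTPRC read 3.20 to 3.38 in the 4 knockdown arrays and CD68, a lysosomal gene that is not limited to leukocytes, 10.71 to 10.81. Both were chosen after their values were seen, and levels of different probe sets cannot be ranked.

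PLX4032 changed 6206 of 18404 genes in knockdown cells (33.7%), of which 3418 rose (18.6%) and 2788 fell (15.1%). The count was 4655 to 6422 when a single array was left out, the lowest without knockdown DMSO array B. Changes of at least 2-fold were called for 510 genes that rose (2.77%) and 522 that fell (2.84%). In scrambled cells 6278 genes changed (34.1%; 17.3% rose and 16.8% fell), with 343 rises (1.86%) and 526 falls (2.86%) of at least 2-fold.

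Most large changes were shared with scrambled cells, and many were larger in knockdown cells. The responses of the 2 kinds of cells share no array. Of the 510 large rises in knockdown cells, 404 genes also rose in scrambled cells, 15 fell there and 91 were not called. Of the 522 large falls, 450 genes also fell in scrambled cells, 12 rose and 60 were not called. The difference between the responses (the interaction: knockdown response minus scrambled response) was called for 2176 of 18404 genes (11.8%). It was called for 331 of the 510 large rises, of which 313 were larger in knockdown cells, and for 276 of the 522 large falls, of which 250 were larger in knockdown cells. These genes were picked for a large change in knockdown cells, which favours that direction. Picked for a large change in scrambled cells instead, 125 of 173 rises and 180 of 241 falls with a called difference were smaller in knockdown cells. The interaction count was 1427 without knockdown DMSO array A, 1278 without knockdown DMSO array B and 1431 without scrambled PLX4032 array A.

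Genes called in both kinds of cells numbered 4063, and 3858 of them moved the same way. The other 205 moved in opposite directions (131 without knockdown DMSO array B), of which 135 rose in knockdown cells, and 27 of the 205 changed by at least 2-fold there. Across all genes the Pearson correlation of the responses was 0.71, a description over genes, which are not independent replicates.

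**Figure D1:**
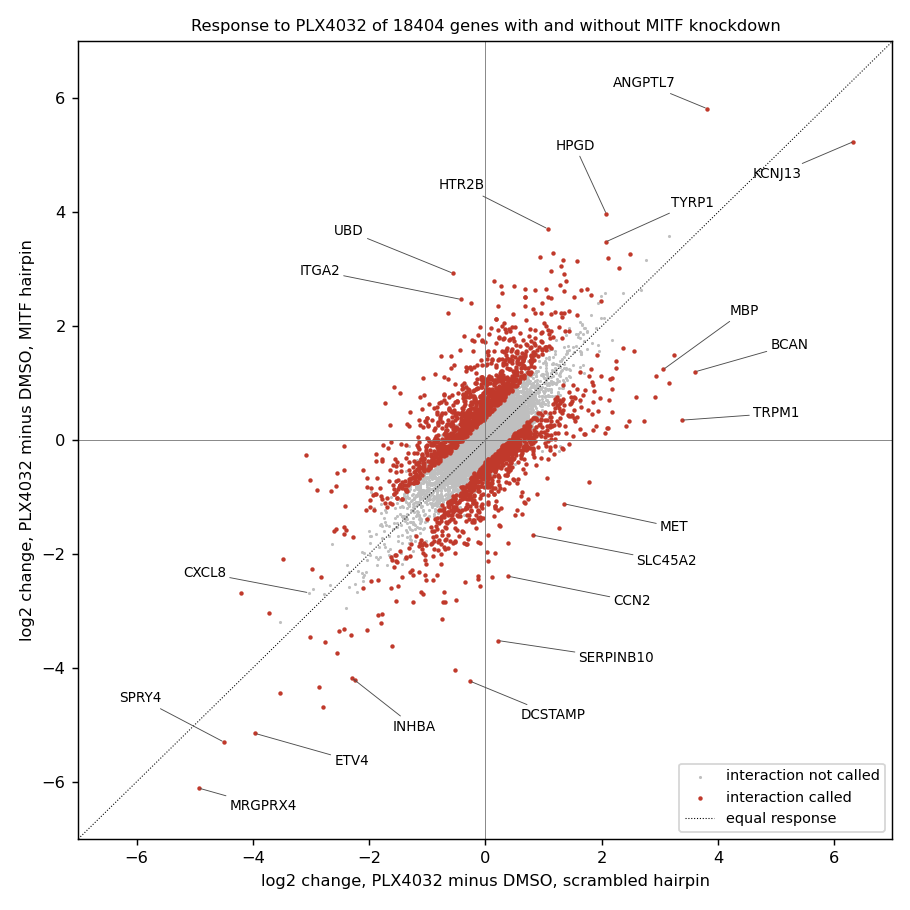
Each point is a gene, placed by its log2 change under PLX4032 in scrambled hairpin cells (horizontal axis) and in MITF hairpin cells (vertical axis). Red points are the 2176 genes whose responses differed by the limma interaction test, grey points the rest, and the dotted line marks equal responses. SPRY4 and ETV4 lie at the lower left in both, whereas SERPINB10, CCN2 and MET fell only on the vertical axis and UBD and ITGA2 rose only there.

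The largest rise in knockdown cells was that of ANGPTL7, which encodes a secreted angiopoietin-like protein. It read 5.18 and 4.78 with DMSO and 10.79 and 10.81 with PLX4032, a change of 5.82 ± 0.12 (56.5-fold, adjusted p = 2.58e-10). The rise in scrambled cells was 3.81, and the difference of 2.01 ± 0.17 was called (adjusted p = 2.74e-05). KCNJ13, a potassium channel gene, read 3.98 and 4.19 with DMSO and 9.39 and 9.27 with PLX4032, a rise of 5.24 ± 0.10. In scrambled cells it read 4.58 and 4.40 with DMSO and 10.86 and 10.78 with PLX4032, a rise of 6.33. The difference of -1.09 ± 0.14 (adjusted p = 0.000618) rests on dim DMSO levels under both hairpins, so neither rise is an exact size.

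Next were HPGD, which encodes the enzyme that inactivates prostaglandins (3.97 ± 0.098), the serotonin receptor gene HTR2B (3.71 ± 0.11), and ASPA, which encodes an aspartate deacetylase of myelinating cells (3.59 ± 0.10). They were followed by the pigment gene TYRP1 (3.48 ± 0.098), CCDC146 (3.29 ± 0.096) and BMF, a pro-apoptotic gene of the BCL2 family (3.27 ± 0.088). DPYSL3, a cytoskeletal gene of growing neurites (3.21 ± 0.092), and OLFML2B (3.19 ± 0.096) completed the 10 largest rises. HPGD read 6.26 and 6.01 with DMSO and 10.03 and 10.17 with PLX4032. HTR2B read 5.69 and 5.47 with DMSO and 9.19 and 9.38 with PLX4032. All 10 rose in scrambled cells too, and ASPA was the only one of the 10 whose responses were not called different by the limma interaction test (0.44 ± 0.14, adjusted p = 0.0737). That difference was called without knockdown PLX4032 array A (0.55, adjusted p = 0.0306), without the dimmest 40% of genes (adjusted p = 0.0372) and with a trended prior (adjusted p = 0.0194).

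Among falls, that of MRGPRX4 was the largest, from 11.23 and 11.21 with DMSO to 5.07 and 5.15 with PLX4032 (-6.11 ± 0.18, 69.2-fold lower). It encodes a G protein-coupled receptor whose family includes close relatives, and its probes may read those too. SPRY4 (-5.30 ± 0.10) and ETV4 (-5.15 ± 0.089), both ERK outputs, came next. They were followed by the apelin receptor gene APLNR (-4.68 ± 0.23), GRAMD1B, a gene for a sterol transfer protein (-4.44 ± 0.16), and TM4SF1, a gene for a membrane protein of motile cells (-4.33 ± 0.093). DCSTAMP, a cell fusion gene (-4.23 ± 0.099), SERPIND1 (-4.21 ± 0.18), the activin subunit gene INHBA (-4.18 ± 0.11) and CRLF2, a cytokine receptor gene (-4.03 ± 0.14), completed the 10. The fall of DCSTAMP had no called counterpart in scrambled cells (-0.27, adjusted p = 0.0593). For the other 9 the change in scrambled cells was also a called fall, between -4.93 for MRGPRX4 and -0.53 for CRLF2, and the fall in knockdown cells was larger by the interaction test for all 10. For GRAMD1B that last call ended without 1 of 5 arrays in turn. For MRGPRX4, SPRY4, APLNR, GRAMD1B, TM4SF1, SERPIND1 and CRLF2, mean levels with PLX4032 differed little between the hairpins. Those with DMSO were higher in knockdown cells. MRGPRX4 averaged 9.72 and 4.79 in scrambled cells with DMSO and PLX4032, against 11.22 and 5.11 in knockdown cells. The larger falls of these genes thus went with a higher start, not with a clearly lower end. With PLX4032, ETV4 and DCSTAMP ended lower in knockdown cells and INHBA higher.

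Most genes downstream of ERK fell in knockdown cells. Of 17 feedback inhibitors of the pathway, 9 fell and 3 rose, with a median of -0.74 (11 fell and 1 rose in scrambled cells, median -0.74). The 3 rises are 17.6% of the list, near the 18.6% of all genes that rose, whereas 15.1% of all genes fell. SPRY4, which encodes an inhibitor of growth factor signalling, read 11.81 and 11.71 with DMSO and 6.38 and 6.54 with PLX4032. DUSP6, the phosphatase that acts on ERK itself, read 11.22 and 11.10 with DMSO and 8.62 and 8.61 with PLX4032 (-2.55 ± 0.084, 5.85-fold lower). The levels with PLX4032 lay far below those with DMSO for both. SPRY1 (-2.58 ± 0.099) and the ERK phosphatase gene DUSP5 (-2.70 ± 0.095) fell as well. The responses of DUSP6 and SPRY1 did not differ detectably between the kinds of cells (differences of 0.13 ± 0.12 and -0.24 ± 0.14), whereas those of SPRY4 (-0.80 ± 0.14) and DUSP5 (-1.62 ± 0.13) were larger in knockdown cells. DUSP5 read 10.04 and 9.94 in knockdown cells with DMSO and 8.04 and 8.21 in scrambled cells with DMSO. With PLX4032 it read 7.29 in both knockdown arrays and 6.95 and 7.13 in the scrambled ones.

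Of 21 transcription factor genes induced by ERK, 15 fell and 4 rose, with a median of -0.90 (12 fell and 4 rose in scrambled cells, median -0.57). The ETS factor gene ETV4 read 10.98 and 10.88 with DMSO and 5.86 and 5.69 with PLX4032, a 35.6-fold fall, and its relative ETV5 fell by 3.33 ± 0.085. EGR1, an immediate early gene, fell by 2.67 ± 0.14. JUN, which encodes an AP-1 subunit, went the other way, from 6.90 and 7.01 to 9.94 and 10.03 (3.02 ± 0.094, 8.12-fold higher). JUN also rose in scrambled cells, by 2.29, and the difference was 0.73 ± 0.13 (adjusted p = 0.00419).

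Secreted and surface genes that depend on ERK fell too: 13 of 17 fell and 2 rose, with a median of -0.99 (12 fell and 1 rose in scrambled cells, median -1.01). They include STC1, which encodes a secreted glycoprotein hormone (-3.19 ± 0.12), the cytokine gene LIF (-3.03 ± 0.093), the neutrophil chemokine gene CXCL8 (-2.68 ± 0.11) and TGFA, which encodes a ligand of the EGF receptor (-2.32 ± 0.099). CXCL8 read 10.71 and 10.75 with DMSO and 8.05 and 8.06 with PLX4032 in knockdown cells. The scrambled arrays read 7.86 and 8.21 with DMSO and 5.05 and 4.94 with PLX4032. The knockdown arrays with PLX4032 thus lay near the scrambled arrays with DMSO. The difference between the responses of CXCL8 was 0.37 ± 0.15 and was not called (adjusted p = 0.173), but it was called without scrambled DMSO array A (0.54, adjusted p = 0.0243).

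A promoter of the ERK lists is shown because it was the single one of 41 such genes with a promoter window that held the ETS motif CCGGAAG, searched on both strands in the 250 bases before the start. It belongs to IER2, an immediate early gene that fell by 1.21, at chr19:13150334-13150410 (GRCh38.p14, plus strand, upstream of the start), with the match, which lies on the opposite strand 27 bases before the start, in capitals. The share with this motif was 2.44% of those 41 genes, 12.1% of all 14230 tested genes with a window, 12.4% of 394 genes that fell at least 2-fold and 4.81% of 416 that rose at least 2-fold.
IER2: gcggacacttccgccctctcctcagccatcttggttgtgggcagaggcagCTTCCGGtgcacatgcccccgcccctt

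**Figure D2:**
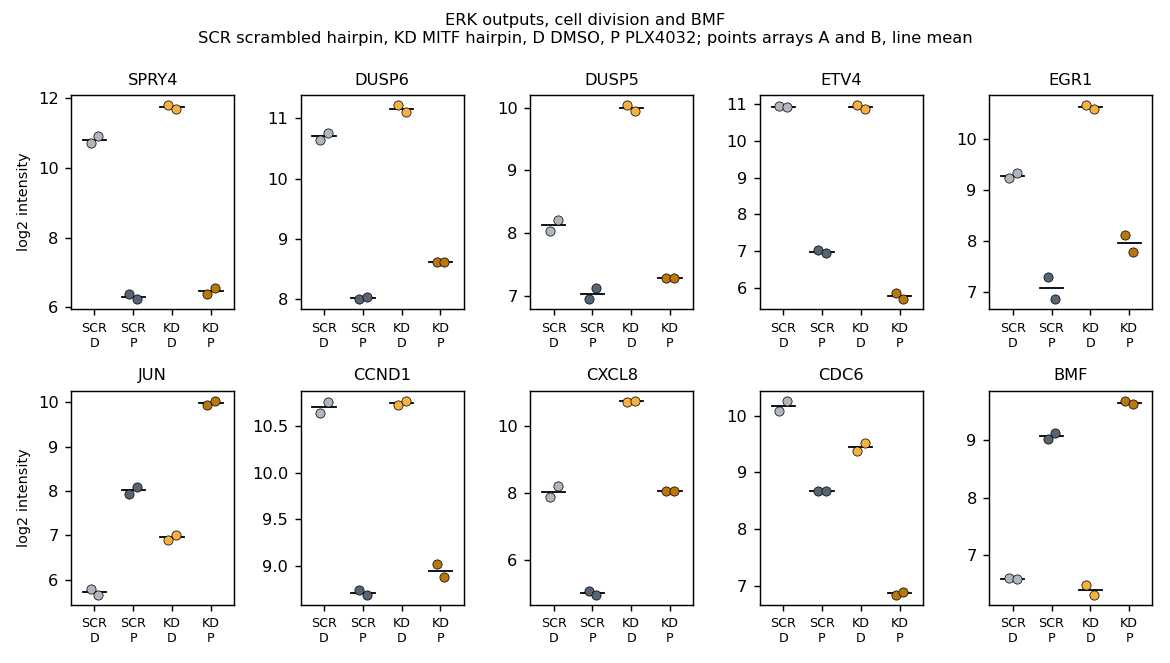
Log2 intensity of 10 genes in each array, with arrays A and B as points and the mean as a line, for scrambled cells (SCR) and knockdown cells (KD) with DMSO (D) or PLX4032 (P); the vertical axes differ between panels. SPRY4, DUSP6, ETV4, EGR1, CCND1, CXCL8 and CDC6 lie lower with PLX4032 under both hairpins, and JUN and BMF lie higher.

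Cell division genes fell nearly without exception. Of 42 mitosis genes 41 fell and 0 rose, with a median of -0.84, and of 37 DNA replication genes 35 fell and 0 rose, with a median of -0.86. In scrambled cells all 42 and all 37 fell, with medians of -1.15 and -1.11. The median level of the mitosis list was 8.54 in knockdown cells with DMSO and 7.72 with PLX4032, against 9.50 and 8.34 in scrambled cells. CDC6, which loads the replicative helicase, read 9.37 and 9.51 with DMSO and 6.84 and 6.90 with PLX4032 (-2.57 ± 0.092), a larger fall than in scrambled cells (difference -1.07 ± 0.13, adjusted p = 0.000336). The replication genes MCM10 (-2.19 ± 0.10), CLSPN (-2.11 ± 0.12) and CDC45 (-1.95 ± 0.11) fell too. CENPK, a kinetochore gene (-2.02 ± 0.15), CDK1, the mitotic kinase gene (-1.45 ± 0.18), the spindle checkpoint gene MAD2L1 (-1.33 ± 0.12) and the condensin gene NCAPG (-1.24 ± 0.10) led the mitosis list. CDK1 read 6.59 and 7.27 with PLX4032, the widest replicate gap among these genes, below 8.33 and 8.42 with DMSO. Over all genes the difference between the responses was called higher for 6.97% and lower for 4.85%. For genes that fell in both, a higher difference is a smaller fall in knockdown cells. The fall of 10 mitosis genes was called smaller in knockdown cells and that of 0 larger, but the 10 became 4 without knockdown DMSO array B or scrambled DMSO array B, 5 without knockdown DMSO array A, knockdown PLX4032 array B or scrambled PLX4032 array B, and 6 without scrambled PLX4032 array A. It became 14 without knockdown PLX4032 array A, 16 without the dimmest 40% of genes and 18 with a trended prior, and 1 fall was called larger without knockdown PLX4032 array B.

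Of 15 genes for G1 cyclins and kinases, 9 fell and 0 rose, with a median of -0.64. Cyclin D1, CCND1, read 10.73 and 10.77 with DMSO and 9.02 and 8.88 with PLX4032 (-1.80 ± 0.087, 3.48-fold lower), which did not differ detectably from scrambled cells (0.18 ± 0.12, adjusted p = 0.423). The cyclin E gene CCNE2 (-1.78 ± 0.13) and CDC25A, which encodes a phosphatase that activates the S phase kinases (-1.45 ± 0.077), also fell. The kinase gene CDK2 fell from 11.55 and 11.48 to 10.36 and 10.35 (-1.16 ± 0.094). In scrambled cells the change of CDK2 was -0.16 (adjusted p = 0.228), and the difference was called (-1.0 ± 0.13, adjusted p = 0.000595). Cell cycle inhibitors were split, with 6 of 17 higher and 5 lower. CCNG2 (1.12 ± 0.093) and KLF6 (0.99 ± 0.078) rose, and the CDK4 and CDK6 inhibitor gene CDKN2B (-1.68 ± 0.082) and the repressive E2F gene E2F5 (-1.23 ± 0.11) fell.

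Growth and glucose genes fell together with division genes. Of 26 ribosome biogenesis genes 21 fell and 0 rose, with a median of -0.76 (22 and 0 in scrambled cells, median -0.63). POLR3G (-1.80 ± 0.11) and POLR1B (-1.52 ± 0.083), subunit genes of RNA polymerases III and I, and the nucleolar genes NOLC1 (-1.39 ± 0.097) and DKC1 (-1.39 ± 0.11) led them. The limma interaction test called 0 of the 26, but it called 4 larger falls with repeated quantile normalization or without the dimmest 40% of genes, and 3 larger and 1 smaller response with a trended prior. The fall of POLR3G was called larger without knockdown PLX4032 array B (-0.54, adjusted p = 0.0434). Of 22 glycolysis genes 19 fell and 1 rose, with a median of -0.65 (17 and 1 in scrambled cells, median -0.49). The hexokinase gene HK2 read 10.40 and 10.41 with DMSO and 7.87 and 8.0 with PLX4032 (-2.47 ± 0.085, 5.54-fold lower). PFKFB4, which makes an activator of glycolysis (-2.06 ± 0.093), and the glucose transporter gene SLC2A1 (-1.50 ± 0.092) fell likewise. So did PDK1, which encodes a kinase that inhibits pyruvate dehydrogenase (-2.01 ± 0.081). The calls of a larger fall in knockdown cells for HK2 (-0.50 ± 0.12), PDK1 (-0.48 ± 0.11) and PFKFB4 (-0.45 ± 0.13) each ended when one or another array was left out, with adjusted p up to 0.0767, 0.0742 and 0.164.

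Sterol and fatty acid synthesis genes fell in knockdown cells and were split in scrambled cells. Of 22 genes 14 fell and 1 rose, with a median of -0.35 (9 fell without knockdown DMSO array A), against 7 falls and 6 rises in scrambled cells with a median of -0.04. The difference was called lower for 10 of the 22 and higher for 0. That count was 7 to 9 when a single array was left out, and 4.85% of all genes were lower. DHCR7, the last enzyme of cholesterol synthesis, read 10.08 and 10.03 with DMSO and 8.16 and 8.33 with PLX4032 (-1.81 ± 0.094; -0.91 in scrambled cells; difference -0.90 ± 0.13). The squalene epoxidase gene SQLE read 10.24 and 10.25 with DMSO and 8.93 and 9.05 with PLX4032. Its fall of 1.25 ± 0.081 compared with -0.24 in scrambled cells (difference -1.01 ± 0.11, adjusted p = 0.000208). ELOVL6, a fatty acid elongase gene (-1.43 ± 0.12), and the fatty acid synthase gene FASN (-1.32 ± 0.086) also fell more in knockdown cells, by -1.19 ± 0.17 and -0.74 ± 0.12.

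Mitochondrial genes moved less. Of 36 respiratory chain and ATP synthase genes, 10 fell and 1 rose, with a median of -0.11, and 6 fell without knockdown DMSO array A or knockdown PLX4032 array A. COX7B, a subunit gene of cytochrome c oxidase, fell from 9.07 and 9.26 to 8.50 and 8.60 in knockdown cells (-0.62 ± 0.11) and rose by 0.33 in scrambled cells. CYCS, the cytochrome c gene (-0.60 ± 0.077), and the complex I genes NDUFV2 (-0.53 ± 0.085) and NDUFA8 (-0.50 ± 0.084) were the other members with the largest falls. Among 23 genes of the TCA cycle and of mitochondrial regulation, 10 fell and 1 rose. The 1 was PPARGC1A, the PGC-1alpha coactivator of mitochondrial biogenesis and a known MITF target. PPARGC1A read 5.66 and 5.09 with DMSO and 6.70 and 6.97 with PLX4032 in knockdown cells, and 8.17 and 8.20 with DMSO and 9.63 and 9.46 with PLX4032 in scrambled cells. It rose by 1.46 ± 0.16 (2.76-fold, adjusted p = 3.14e-05), as against 1.36 in scrambled cells (difference 0.11 ± 0.23, adjusted p = 0.834), yet both knockdown arrays with PLX4032 stayed below every scrambled array. TFB1M, a gene for a mitochondrial rRNA methyltransferase (-1.99 ± 0.17), the mitochondrial transcription gene TFAM (-0.61 ± 0.11) and the coactivator gene PPRC1 (-0.94 ± 0.087) fell. Lysosomal and autophagy genes went up under both hairpins. In scrambled cells 18 of 29 rose and 1 fell, with a median of 0.30. In knockdown cells 17 rose and 2 fell, also with a median of 0.30. The largest rises were those of GABARAPL1, an autophagosome gene (0.87 ± 0.083), and of the lysosomal enzyme genes ARSA (0.82 ± 0.086), ASAH1 (0.66 ± 0.079) and GAA (0.64 ± 0.085).

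**Figure D3:**
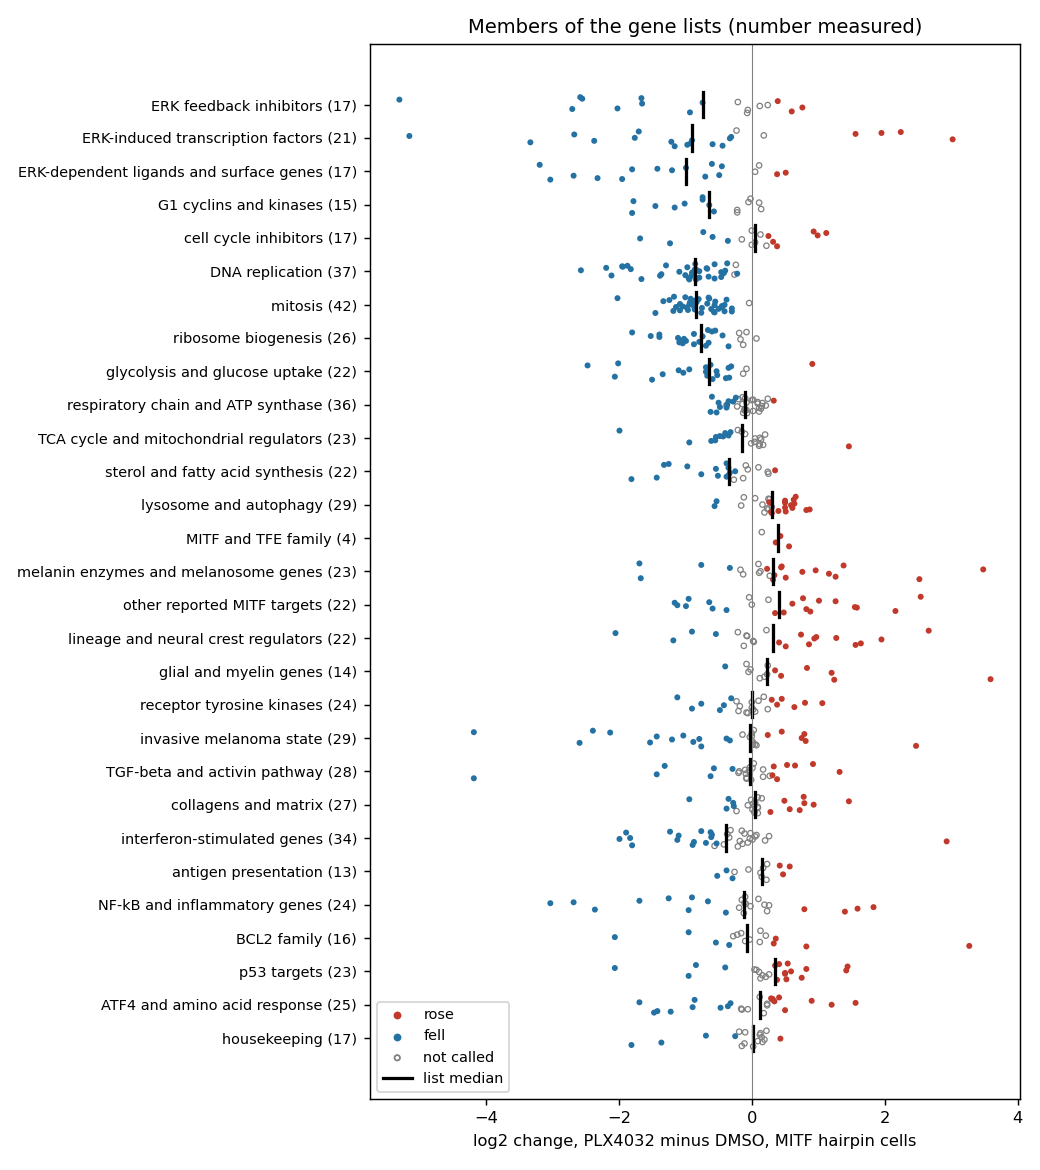
Each point is a member of a gene list, placed by its log2 change under PLX4032 in MITF hairpin cells, with red for members that rose, blue for those that fell, open points for those not called and a bar for the list median. The division, ribosome biogenesis and glycolysis lists lie to the left of 0, with medians between -0.86 and -0.65, and the lysosome and melanosome lists to the right, with medians of 0.30 and 0.32.

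Pigment genes and other reported MITF targets rose on balance, from a lower start, and individual genes behaved very differently. Of 23 melanin and melanosome genes 13 rose and 4 fell, with a median of 0.32 (18 rose and 1 fell in scrambled cells, median 0.55). Among 22 further genes reported as MITF targets, 12 rose and 7 fell, with a median of 0.41 (13 and 3 in scrambled cells, median 0.68). The difference between the responses was called higher for 4 and lower for 9 of the first list, and for 6 and 7 of the second. Over all genes it was called higher for 6.97% and lower for 4.85%. The median level of the second list was 7.42 in knockdown cells with DMSO and 8.07 with PLX4032, against 8.90 and 9.62 in scrambled cells.

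Promoters are shown for the members of these lists with the largest rise whose window before the start held the M-box TCATGTG, the sequence through which MITF acts on pigment genes, searched on both strands. In each the match is in capitals, and all lie upstream of the annotated start (RefSeq, GRCh38.p14). TYRP1 lies at chr9:12693190-12693296 on the plus strand, with the match 145 bases before the start. TRIM63 lies at chr1:26067631-26067731 on the minus strand, with the match 51 bases before it. GPR137B lies at chr1:236142458-236142538 on the plus strand, with the match 31 bases before it, and TYR at chr11:89177720-89177826 on the plus strand, with the match 105 bases before it.
TYRP1: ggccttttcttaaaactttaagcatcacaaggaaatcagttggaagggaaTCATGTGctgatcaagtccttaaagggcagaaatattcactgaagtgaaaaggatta
TRIM63: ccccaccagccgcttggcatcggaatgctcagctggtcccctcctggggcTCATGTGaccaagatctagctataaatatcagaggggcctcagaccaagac
GPR137B: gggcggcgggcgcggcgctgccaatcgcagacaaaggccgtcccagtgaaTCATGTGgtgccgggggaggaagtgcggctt
TYR: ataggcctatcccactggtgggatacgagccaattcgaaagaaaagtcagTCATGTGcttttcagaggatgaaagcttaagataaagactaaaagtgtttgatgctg

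The M-box was present in 7 of 39 MITF-related genes with a window (17.9%), in 4 of the 24 that rose (16.7%), and in 1.86% of all 14230 genes. It was present in 3.12% of genes that rose at least 2-fold and in 3.05% of those that fell as much. These genes were listed because they are known MITF targets, so their share is a description.

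Genes that share the motif did not share the size of the response. TYRP1, a melanosomal enzyme gene, read 5.54 and 5.63 in knockdown cells with DMSO and 9.03 and 9.10 with PLX4032, a rise of 3.48 ± 0.098 (11.2-fold). In scrambled cells it read 8.08 and 8.20 with DMSO and 10.33 and 10.09 with PLX4032, and the rise in knockdown cells was larger by 1.41 ± 0.14 (adjusted p = 7.64e-05). The knockdown arrays with PLX4032 lay above the scrambled arrays with DMSO. Tyrosinase, TYR, the first enzyme of melanin synthesis, read 11.24 and 11.10 with DMSO and 11.45 and 11.52 with PLX4032. Its rise of 0.32 ± 0.088 was no longer called without knockdown DMSO array B (0.24, adjusted p = 0.151) or knockdown PLX4032 array B (0.28, adjusted p = 0.0831). TRIM63, a ubiquitin ligase gene, read 4.92 and 4.68 with DMSO and 6.20 and 5.91 with PLX4032 (1.26 ± 0.11), less than its rise of 2.24 in scrambled cells (difference -0.98 ± 0.16). GPR137B, a lysosomal membrane protein gene, rose by 0.61 ± 0.098.

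TRPM1, the melanocyte channel gene, hardly responded in knockdown cells. It read 5.05 and 4.89 with DMSO and 5.43 and 5.21 with PLX4032, a change of 0.35 ± 0.099 that was not called without knockdown DMSO array B (0.27, adjusted p = 0.16) or knockdown PLX4032 array A (0.24, adjusted p = 0.146). Scrambled cells went from 5.42 and 5.32 to 8.78 and 8.71, a rise of 3.38, and the difference was -3.03 ± 0.14 (adjusted p = 1.11e-06). With DMSO the level was low under both hairpins. MLANA, the gene of a melanosomal antigen, rose from 4.32 and 4.47 to 5.76 and 5.79 (1.38 ± 0.095), less than in scrambled cells (2.24, difference -0.86 ± 0.14, adjusted p = 0.00171). Its knockdown arrays with PLX4032 remained below the scrambled arrays with DMSO, at 6.17 and 6.30.

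LYST, a gene for traffic of lysosome-related organelles, showed the reverse. It read 7.88 and 7.82 with DMSO and 10.36 and 10.39 with PLX4032 (2.52 ± 0.081), and its rise in scrambled cells was only 0.68 (difference 1.84 ± 0.11). The levels with PLX4032 lay above the scrambled arrays with DMSO, at 10.12 and 10.00. The semaphorin gene SEMA6A (2.54 ± 0.12) and the cell cycle gene CABLES1 (2.16 ± 0.077) rose most among the other MITF targets. The vesicle fusion gene STX7 (1.58 ± 0.080) and the glycogenin gene GYG2 (1.55 ± 0.086) came next. These 4 were picked for a large rise in knockdown cells, which favours a larger rise there. For all 4 the rise was called larger in knockdown cells than in scrambled cells, by 0.54 to 0.83. The call ended for STX7 without knockdown DMSO array B (0.53, adjusted p = 0.0507) and for SEMA6A without scrambled PLX4032 array B (0.68, adjusted p = 0.0674).

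SLC45A2, a melanosomal transporter gene, moved in opposite directions. It fell from 8.44 and 8.41 to 6.62 and 6.90 in knockdown cells (-1.67 ± 0.11) and rose from 8.61 and 8.80 to 9.57 and 9.48 in scrambled cells (0.82, difference -2.49 ± 0.15, adjusted p = 3.84e-06). The DMSO levels differed little beside these shifts. SLC7A11, the cystine transporter gene, fell in both kinds of cells (-1.69 ± 0.15 and -1.65).

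**Figure D4:**
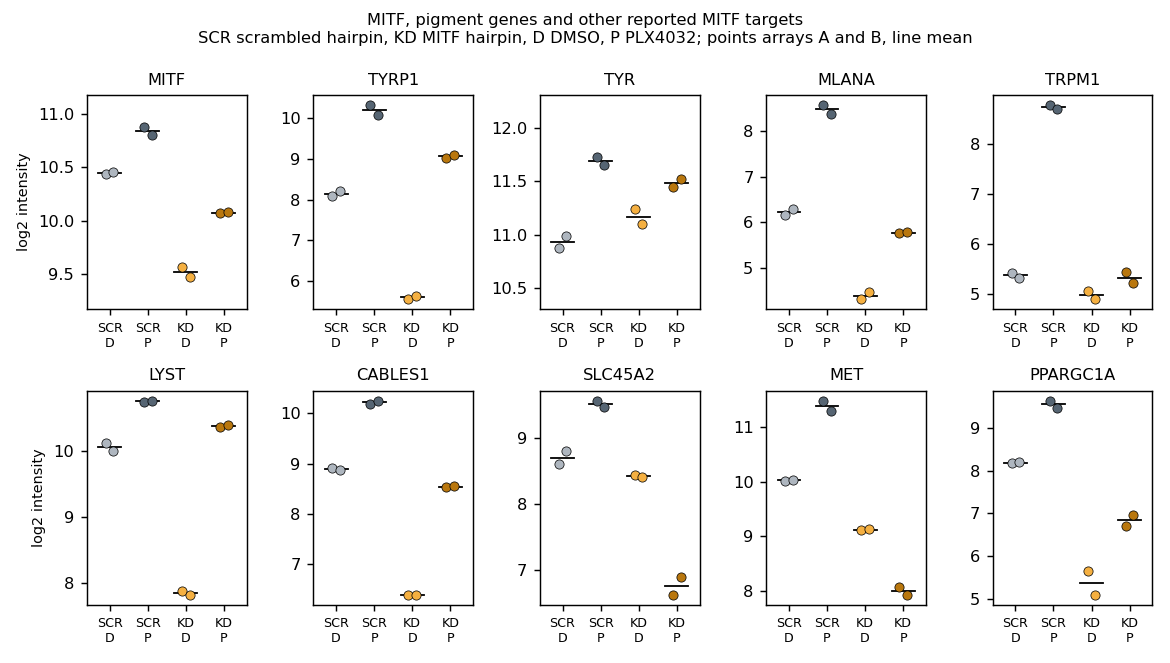
Log2 intensity of MITF, 6 pigment or melanocyte genes and 3 other genes reported as MITF targets in each array, with points for arrays A and B and a line for the mean; SCR is the scrambled hairpin, KD the MITF hairpin, D DMSO and P PLX4032, and the vertical axes differ between panels. TYRP1 and LYST rise furthest under the MITF hairpin, TRPM1 rises by 3.38 under the scrambled hairpin and by 0.35 under the MITF hairpin, and SLC45A2 and MET fall under the MITF hairpin and rise under the scrambled one.

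Neural crest and glial genes rose more often than they fell. Among 22 regulators of the lineage and the neural crest, 11 rose and 4 fell, with a median of 0.31 (0.21 without knockdown PLX4032 array B, 0.42 without knockdown PLX4032 array A). FOXD3, a neural crest repressor gene, read 7.57 and 7.49 with DMSO and 10.24 and 10.13 with PLX4032 (2.66 ± 0.11), and its rise exceeded that in scrambled cells by 1.62 ± 0.16. NGFR, the receptor gene of neural crest cells, read 8.67 and 8.63 with DMSO and 10.57 and 10.62 with PLX4032 (1.95 ± 0.077, 3.86-fold). In scrambled cells it read 7.15 and 7.12 with DMSO and 7.46 and 7.49 with PLX4032, and the difference of 1.61 ± 0.11 was called (adjusted p = 7.25e-06). ZEB2, a melanocyte transcription factor gene, rose (1.64 ± 0.080) and the Wnt effector gene LEF1 fell (-2.05 ± 0.084).

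Of 14 glial and myelin genes 6 rose and 1 fell, with a median of 0.23 (0.64 without the dimmest 40% of genes), and the 1 fall was lost without either knockdown DMSO array or knockdown PLX4032 array B. In scrambled cells 7 rose and 1 fell, with a median of 0.23. ASPA stood out in knockdown cells with 3.59. The myelin gene MBP (1.24 ± 0.090), the matrix proteoglycan gene BCAN (1.20 ± 0.11) and the adhesion gene L1CAM (0.83 ± 0.083) followed. MBP read 5.57 and 5.68 with DMSO and 6.82 and 6.90 with PLX4032, and BCAN 5.96 and 5.75 with DMSO and 7.10 and 7.01 with PLX4032. Both rose far less than in scrambled cells, where the changes were 3.06 and 3.61 (differences -1.83 ± 0.13 and -2.41 ± 0.15).

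Receptor tyrosine kinase genes showed no common direction, with 6 of 24 higher, 6 lower and a median of 0.00. That is 25.0% each way, against 18.6% of all genes that rose and 15.1% that fell. MET, the receptor gene for hepatocyte growth factor and a reported MITF target, fell from 9.12 and 9.13 to 8.08 and 7.93 in knockdown cells (-1.12 ± 0.092). In scrambled cells it rose from 10.01 and 10.04 to 11.48 and 11.29 (1.36), and the difference was -2.48 ± 0.13 (adjusted p = 1.91e-06). ROR1, an orphan receptor gene of the Wnt5a pathway, rose from 7.92 and 7.96 to 8.95 and 9.05 (1.06 ± 0.11), against -0.06 in scrambled cells (adjusted p = 0.747, difference 1.11 ± 0.16). ERBB2 rose (0.80 ± 0.084) and IGF1R fell (-0.90 ± 0.077).

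Genes of the invasive melanoma state fell more often than they rose. Of 29 genes 13 fell and 6 rose, with a median of -0.03 (-0.26 without the dimmest 40% of genes), against 18 falls and 1 rise in scrambled cells with a median of -0.55. INHBA read 11.59 and 11.57 with DMSO and 7.41 with PLX4032 in both arrays, below the scrambled arrays with DMSO at 8.72 and 8.96. CCN2, a matricellular gene induced by YAP and TGF-beta, fell from 10.37 and 10.35 to 7.90 and 8.04 (-2.39 ± 0.11), and in scrambled cells, where it read 8.34 and 8.64 with DMSO, it rose by 0.39 (difference -2.78 ± 0.15). SNAI1, a gene for a repressor of E-cadherin, fell by 2.59 ± 0.092. ITGA2, the collagen receptor integrin gene, rose from 8.43 and 8.42 to 10.88 and 10.91 (2.47 ± 0.081) and fell slightly in scrambled cells (-0.42), a difference of 2.89 ± 0.11 (adjusted p = 4.08e-07). Its DMSO levels were alike under both hairpins, at 8.21 and 8.29 in scrambled cells.

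Of 28 TGF-beta and activin pathway genes 7 rose and 6 fell, with a median of -0.03, and 4 rose without knockdown DMSO array B. The 7 and 6 are 25.0% and 21.4% of the list, near the shares of all genes, 18.6% and 15.1%. The receptor gene TGFBR2 rose (1.32 ± 0.090), and the activin antagonist FST (-1.43 ± 0.091) and the pseudoreceptor gene BAMBI (-1.31 ± 0.086) fell with INHBA. FST read 11.20 and 11.28 with DMSO and 9.71 and 9.92 with PLX4032 in knockdown cells, while the scrambled arrays lay between 5.41 and 6.71.

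Of 27 collagen and matrix genes 8 rose and 5 fell, with a median of 0.05, and 3 fell without either knockdown DMSO array. The 8 and 5 are 29.6% and 18.5% of the list, against 18.6% and 15.1% of all genes. Without the dimmest 40% of genes 18 members were left, of which 5 rose, and without knockdown PLX4032 array B the median was 0.15. The difference from scrambled cells was called higher for 8 and lower for 0 (5 higher without knockdown DMSO array B), against 6.97% of all genes higher. COL5A2 (1.46 ± 0.081), osteopontin, SPP1 (0.93 ± 0.085), and periostin, POSTN (0.79 ± 0.16), rose. THBS2, the thrombospondin 2 gene, fell by 0.94 ± 0.083, less than its -1.88 in scrambled cells. Fibroblast markers include collagen and matrix genes and overlap this list, so they are no separate reading of it. Of these markers 3 of 9 rose and 1 fell (1 rose without the dimmest 40% of genes). Their median level was 5.37 with DMSO and 5.72 with PLX4032. The 3 included COL3A1 (0.57 ± 0.10), DCN (0.28 ± 0.086) and POSTN, a member of both lists, and the 1 was COL1A2 (-0.28 ± 0.083). The calls of DCN and COL1A2 ended without either knockdown DMSO array or knockdown PLX4032 array B (adjusted p 0.0783 to 0.153). DCN read between 3.41 and 3.76 in the knockdown arrays. Whether any fibroblasts were present in this cell line was not tested.

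Interferon-stimulated genes fell more often than they rose in knockdown cells. Of 34 genes 15 fell and 1 rose, with a median of -0.39, whereas in scrambled cells 3 fell and 9 rose, with a median of 0.20. The difference was called lower for 16 and higher for 1, and the 16 became 11 to 23 when a single array was left out. Over all genes the difference was called lower for 4.85% and higher for 6.97%. The median level of the list was 9.18 in knockdown cells with DMSO and 8.74 with PLX4032, against 6.64 and 6.94 in scrambled cells. The T cell chemokine gene CXCL10 read 9.06 and 9.02 with DMSO and 7.17 and 7.13 with PLX4032 (-1.89 ± 0.079, 3.70-fold lower). Its scrambled arrays lay between 3.97 and 4.67, so that the level under PLX4032 in knockdown cells was still the higher one. CXCL11 (-1.99 ± 0.10) and the antiviral gene RSAD2 (-1.83 ± 0.15) fell as well, and for all 3 the fall was larger than the change in scrambled cells (differences of -1.25 to -1.50). The 1 member that rose was UBD, which encodes a ubiquitin-like modifier. UBD read 5.03 and 4.95 with DMSO and 7.82 and 8.02 with PLX4032 (2.93 ± 0.20, 7.60-fold), and the scrambled arrays lay between 4.50 and 5.63.

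Antigen presentation genes were mixed, with 3 of 13 higher and 3 lower, and 1 and 1 without knockdown DMSO array B. With repeated quantile normalization or a trended prior 5 were higher. The 3 and 3 are 23.1% of the list each, against 18.6% of all genes that rose and 15.1% that fell. The list median was 0.15. In scrambled cells 7 of the 13 rose and 1 fell, with a median of 0.32. The peptidase gene ERAP1 rose (0.47 ± 0.079) and the peptide transporter gene TAP2 fell (-0.52 ± 0.088). TAPBP (0.42 ± 0.098) was not called without knockdown DMSO array B (0.34). Its response differed from that in scrambled cells by -0.03 (limma adjusted p = 0.928). With the mean of its 3 probe sets that difference was 0.67 and was called (limma adjusted p = 0.0289). HLA-DPA1 read 5.52 and 4.90 with DMSO and 5.68 and 5.87 with PLX4032, and its change of 0.57 ± 0.16 was 0.87 (adjusted p = 0.000598) without knockdown DMSO array A, 0.26 (adjusted p = 0.189) without knockdown DMSO array B and 0.47 (adjusted p = 0.0986) without knockdown PLX4032 array B.

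Of 24 NF-kB and inflammatory genes 9 fell and 4 rose, with a median of -0.12 (11 fell and 2 rose in scrambled cells, median -0.23). The difference between the responses was called higher for 9 and lower for 3, against 6.97% and 4.85% of all genes. LIF and CXCL8, already named among the ERK outputs, and the prostaglandin synthase gene PTGS2 (-2.36 ± 0.18) fell most. PTGS2 read 8.16 and 8.39 with DMSO and 5.61 and 6.22 with PLX4032. The cytokine gene IL24 rose from 7.47 and 7.93 to 9.36 and 9.69 (1.83 ± 0.20). In scrambled cells its change was -0.36 (adjusted p = 0.205), and the difference of 2.19 ± 0.29 was called (adjusted p = 0.000581).

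Survival and stress genes changed individually. Of 16 BCL2 family genes 4 rose and 4 fell, with a median of -0.06, and 2 rose without knockdown DMSO array B or knockdown PLX4032 array A. The 4 and 4 are 25.0% of the list each, against 18.6% of all genes that rose and 15.1% that fell. BMF, a pro-apoptotic BH3-only gene, read 6.47 and 6.30 with DMSO and 9.69 and 9.63 with PLX4032 (3.27 ± 0.088, 9.66-fold). Its rise was larger than in scrambled cells by 0.78 ± 0.12 (limma adjusted p = 0.00203). BCL2A1, a pro-survival gene and reported MITF target, fell from 8.68 and 8.66 to 7.72 and 7.71 (-0.95 ± 0.093). In scrambled cells it rose from 8.63 and 8.86 to 9.58 and 9.68 (0.88), and the difference was -1.84 ± 0.13 (adjusted p = 1.09e-05). Its DMSO levels were thus alike under both hairpins and its PLX4032 levels were not. The BH3-only gene PMAIP1 fell (-2.06 ± 0.14) and BCL2 rose (0.82 ± 0.13). The difference of BCL2 from scrambled cells (0.82 ± 0.19, adjusted p = 0.0166) was not called without knockdown DMSO array B (0.61, adjusted p = 0.058) or scrambled PLX4032 array A (0.69, adjusted p = 0.0832).

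Of 23 p53 targets 12 rose and 4 fell, with a median of 0.35. TP53I3 (1.44 ± 0.086) and ZMAT3 (1.42 ± 0.099) rose most, and PMAIP1 and the stress cytokine gene GDF15 (-0.95 ± 0.095) fell. ATF4 and amino acid response genes were split, with 8 of 25 higher and 9 lower. The 8 became 5 without knockdown DMSO array A, 3 without knockdown DMSO array B and 4 without knockdown PLX4032 array B. The stress factor gene ATF3 rose (1.56 ± 0.14), and the folate enzyme gene MTHFD2 (-1.47 ± 0.15), the glutamine transporter gene SLC1A5 (-1.42 ± 0.092) and SLC7A11 fell.

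Among called changes in knockdown cells, the responses that differed most from scrambled cells belonged to genes of varied function. On the high side, SYNE3, a nuclear envelope gene, rose from 6.28 and 6.38 to 8.40 and 8.72 (2.23 ± 0.11) and fell by 0.65 in scrambled cells. PODXL, a sialomucin gene, rose by 0.94 ± 0.078 and fell by 1.58 in scrambled cells. ABI3BP, a matrix protein gene (2.80 ± 0.12), and the symbol LINC00341 (2.40 ± 0.096) rose in knockdown cells. They changed by 0.15 (limma adjusted p = 0.373) and -0.24 (adjusted p = 0.0838) in scrambled cells. LINC00341 had no chromosome in the gene records used, and its probe set, 7981157, is numbered close to that of SYNE3, 7981161. Whether these probe sets read the same locus was not tested. The homeobox gene DLX5 rose by 2.70 ± 0.086, against 0.26. With UBD, ITGA2 and HTR2B these were the 8 highest differences, from 2.44 ± 0.12 for DLX5 to 3.49 ± 0.28 for UBD.

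On the low side, SERPINB10, a serpin gene, read 7.52 and 7.40 in knockdown cells with DMSO and 3.92 and 3.97 with PLX4032 (-3.52 ± 0.098), while its scrambled arrays lay between 3.39 and 3.78. CRLF2 read 7.64 and 7.47 with DMSO and 3.71 and 3.35 with PLX4032, and 3.21 to 3.98 in the scrambled arrays. DCSTAMP read 8.16 and 8.17 with DMSO and 4.07 and 3.81 with PLX4032, and 5.69 to 6.03 in the scrambled arrays. For SERPINB10 and CRLF2 only the knockdown arrays with DMSO stood high. Those of DCSTAMP were also its highest, but its knockdown arrays with PLX4032 lay below all its scrambled arrays. The phospholamban gene PLN, which read 6.78 and 6.59 with DMSO, fell to 4.40 and 4.16 (-2.41 ± 0.12), below its scrambled arrays, with a change of 0.12 (adjusted p = 0.464) in scrambled cells. The signalling inhibitor gene SOCS6 fell by 0.73 ± 0.083 and rose by 1.79 in scrambled cells. The cystatin gene CST1, whose probes can read related cystatins, fell from 9.75 and 9.98 to 8.19 and 8.46 (-1.54 ± 0.27), and its scrambled arrays lay between 4.67 and 6.68. With CCN2 and TRPM1 these were the 8 lowest differences, from -3.96 ± 0.14 for DCSTAMP to -2.52 ± 0.12 for SOCS6.

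**Figure D5:**
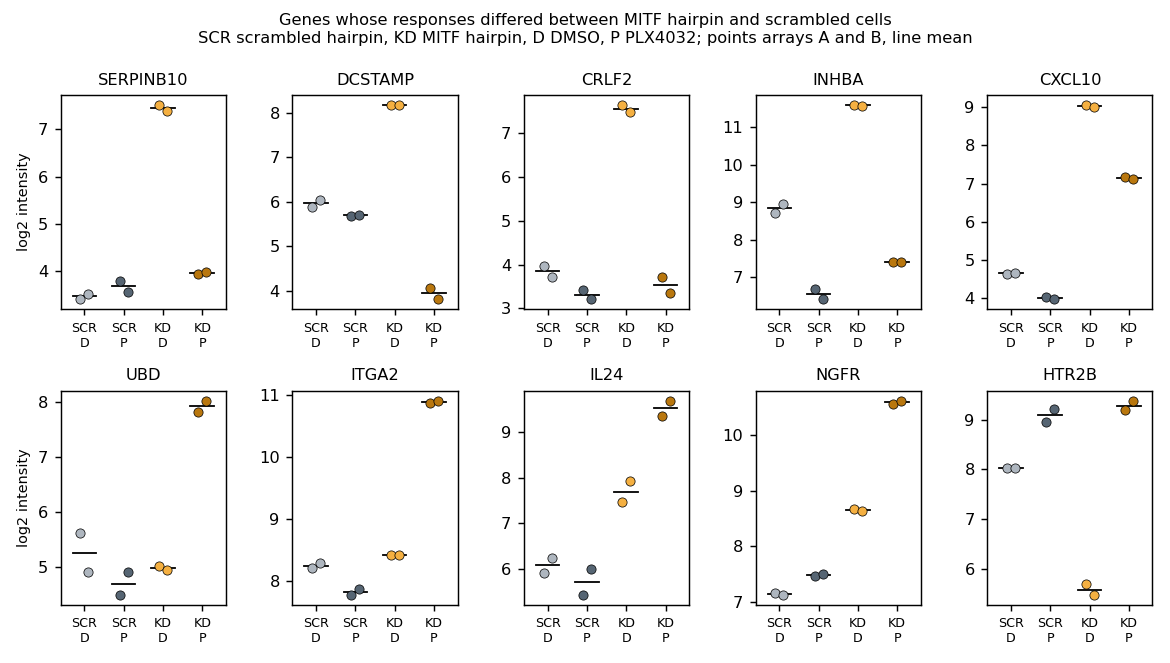
Log2 intensity in each array of 10 genes whose responses to PLX4032 differed between the hairpins, with points for arrays A and B and a line for the mean; SCR is the scrambled hairpin, KD the MITF hairpin, D DMSO and P PLX4032, and the vertical axes differ between panels. SERPINB10 and CRLF2 stand high only in knockdown cells with DMSO, UBD and ITGA2 only in knockdown cells with PLX4032.

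Genes often used as references were not all stable. Of 17 housekeeping genes 4 fell (23.5%) and 1 rose (5.88%), with a median of 0.02. Of all genes tested, 15.1% fell and 18.6% rose. HPRT1 fell from 8.90 and 8.98 to 7.51 and 7.64 (-1.36 ± 0.11), the transferrin receptor gene TFRC by 1.81 ± 0.11 and the glycolytic gene GPI by 0.69 ± 0.085, while GUSB rose by 0.43 ± 0.081. The falls of HPRT1 and TFRC were also called in scrambled cells (-1.25 and -1.32). Among 7 endothelial markers 0 rose and 1 fell, TEK (-0.32 ± 0.10), which was not called without knockdown DMSO array B (-0.19, adjusted p = 0.29) or knockdown PLX4032 array B (-0.24, adjusted p = 0.174).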

How the data were processed

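The authors deposited log2 intensities per probe set of Affymetrix arrays, 1 per sample, made with RMA (background correction, quantile normalization and probe summary) per the submitters' processing notes, which give no version. RMA removes a shift common to most genes and compresses changes of dim and very bright probe sets. The authors' genome build and annotation: not given in the sources used here. Scanner files and detection calls were not used, which leaves signal over background unknown. Of 32321 probe sets, 19158 carried 1 gene symbol in the platform annotation, 1388 several and 11775 none. Of the 19158, 19128 matched a RefSeq record. The 637 genes with several probe sets were read through that with the highest mean, which left 18404 genes, unfiltered. Columns of other samples numbered 0.

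A linear model in limma 3.58.1 under R 4.3.3 (lmFit, eBayes) fitted a mean per group over 8 arrays, with 4 residual and 6.73 prior degrees of freedom. Contrasts were tested two-sided, with Benjamini-Hochberg adjustment over all genes and a threshold of 0.05. The code was tested on simulated data. The members, the 34 gene lists (785 entries, 711 measured) and the tests were chosen with earlier results of these data known, and lists are described by counts and medians with no test. Genes named are MITF, the 10 largest called rises and falls whose arrays do not overlap, up to 4 members per list with the largest called change (2 where none was called), DUSP6, SPRY4, CCND1, TYR, MLANA, TRPM1 and PPARGC1A, the 8 highest and 8 lowest interaction values among genes called in both tests, and genes whose promoter is printed. Some genes stand in several lists. Promoter windows of 250 bases before the start are those of RefSeq (GRCh38.p14) and were matched by symbol for 14230 genes. Alternatives were the knockdown arrays alone, the letter as a block, repeated quantile normalization, median centring, no dim genes, a trended prior, the mean of probe sets, and each array left out. The letters A and B stand in all groups, and the labels do not say that they pair arrays.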

Additional observations from a re-analysis of the deposited data

Results flagged for a closer look

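The response to PLX4032 differed between knockdown and scrambled cells for 2176 genes by the limma interaction test (11.8% of 18404), and 82 of the named genes were among them. Values in parentheses are the log2 response in knockdown cells minus that in scrambled cells. The call was kept for 68 of the 82 under all alternatives tried.

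Of genes that rose in knockdown cells, 28 had a higher response there than in scrambled cells: UBD (3.49), ITGA2 (2.89), SYNE3 (2.88), ABI3BP (2.65), HTR2B (2.64), LINC00341 (2.63), PODXL (2.52), DLX5 (2.44), DPYSL3 (2.27), IL24 (2.19), CCDC146 (2.12), ANGPTL7 (2.01), HPGD (1.89), LYST (1.84), FOXD3 (1.62), NGFR (1.61), POSTN (1.52), TYRP1 (1.41), ROR1 (1.11), OLFML2B (1.08), ATF3 (1.03), COL5A2 (0.84), CABLES1 (0.83), BMF (0.78), JUN (0.73), GYG2 (0.72), ZEB2 (0.72) and KLF6 (0.60). UBD, ITGA2, SYNE3, PODXL and POSTN of these fell in scrambled cells. A further 6 that rose had a lower response in knockdown cells: TRPM1 (-3.03), BCAN (-2.41), MBP (-1.83), KCNJ13 (-1.09), TRIM63 (-0.98) and MLANA (-0.86).

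Of genes that fell in knockdown cells, 32 had a lower response there: DCSTAMP (-3.96), SERPINB10 (-3.74), CRLF2 (-3.50), CST1 (-2.80), CCN2 (-2.78), PLN (-2.53), SOCS6 (-2.52), SLC45A2 (-2.49), MET (-2.48), SERPIND1 (-1.96), APLNR (-1.88), INHBA (-1.88), BCL2A1 (-1.84), DUSP5 (-1.62), RSAD2 (-1.50), CXCL11 (-1.46), TM4SF1 (-1.45), PTGS2 (-1.32), ETV5 (-1.30), CXCL10 (-1.25), ETV4 (-1.20), ELOVL6 (-1.19), MRGPRX4 (-1.18), CDC6 (-1.07), SQLE (-1.01), CDK2 (-1.0), COX7B (-0.94), DHCR7 (-0.90), BAMBI (-0.82), SPRY4 (-0.80), FASN (-0.74) and LEF1 (-0.69). CST1, CCN2, SOCS6, SLC45A2, MET, BCL2A1 and COX7B of these rose in scrambled cells. For 2 the fall was smaller in knockdown cells: THBS2 (0.95) and LIF (0.70).

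The call ended for the other 14 when a single array was left out: GRAMD1B (-0.90), BCL2 (0.82), SEMA6A (0.72), E2F5 (0.69), SPP1 (0.56), STX7 (0.54), HK2 (-0.50), SNAI1 (-0.49), COL1A2 (0.49), PDK1 (-0.48), PFKFB4 (-0.45), NDUFA8 (-0.44), TYR (-0.44) and CYCS (-0.41).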

How the results depend on the processing

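Of 15 alternatives, none reversed the direction of a named gene called in knockdown cells. Genes called under PLX4032 in knockdown cells numbered 6206, and 4655 to 6422 when an array was left out. Genes whose responses differed numbered 2176, and 1278 to 2132 when an array was left out. Such a fit leaves 1 array in a group, which is assumed to vary like the other groups. Whether the letters A and B pair the arrays could not be shown. The A minus B differences of the knockdown groups correlated at -0.094 across genes, and those of knockdown PLX4032 and scrambled DMSO cells at 0.329. With the letter as a replicate block 6202 and 2176 genes were called, and among named genes TYR lost its interaction call (adjusted p = 0.0552) and CCNE2 (0.0461) and MCM10 (0.0289) gained one. Of 143 named genes called in knockdown cells, 134 kept the call under all 15 alternatives. The other 9 were COL1A2, DCN, HLA-DPA1, TAPBP, TEK, TFE3, TFEB, TRPM1 and TYR. Centring each array on its median changed the share of calls that rose from 55.1% to 50.5%, and repeated quantile normalization gave 53.4%. These scalings moved the median change of all genes by at most 0.0407 in size. With 2 arrays per group, small changes of dim genes could not be resolved.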

Other observations

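For 5 genes, probe sets were called in opposite directions under PLX4032 in knockdown cells. KLF13 read 1.67 and -0.27, HIP1 -0.46 and 0.74, MICAL3 -0.66 and 0.65, GPATCH4 -0.63 and 0.28, and CSPG4P5 -1.27 and 0.55. The cause was not tested.

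Other promoter motifs were counted in the 250 bases before the start. The AP-1 motif TGACTCA was present in 5 of 41 genes of the ERK lists with a window (12.2%), in 3.61% of genes that rose at least 2-fold, in 3.3% of those that fell as much and in 3.08% of all genes. The E-box CACGTG was present in 12.8% of 39 MITF-related genes, in 8.17% of large rises, in 7.87% of large falls and in 7.86% of all genes. These shares are descriptions.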
